A study of Homo sapiens with 18 samples.

Results

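Genes that the transcription factor p53 is known to switch on were followed in PANC-1 cells, a human pancreatic ductal adenocarcinoma line that carries mutant p53. They were the 9 genes MDM2, MDM4, PPM1D, CDKN1A, GADD45A, SESN1, TP53I3, RRM2B and ZMAT3, out of the 58302 genes in the expression table. Each symbol matched 1 Ensembl gene, and all 9 were among the 12982 genes that passed the filter on low values (3 or more libraries at 1 FPKM or above). FPKM is a fragment count divided by gene length and by the fragments in the library. The shCtrl cells carried a lentiviral shRNA vector that the labels call empty, and the shNAT10 cells a lentiviral shRNA against NAT10, the enzyme that writes N4-acetylcytidine (ac4C) into RNA. Both were stable lines with no further treatment named, and the study lists more than 1 shRNA sequence against NAT10 and a non-targeting one. Which of them the sequenced cells carried, and whether the lines were clones, is not given in the sources used here. RNA-seq held 3 libraries per group, and acRIP-seq, in which an antibody pulls down RNA with ac4C, held 3 immunoprecipitated (IP) and 3 input libraries per group, joined by the authors into 1 peak list per group. The labels do not say whether the libraries of a group came from separate cultures, so p-values measure the spread between these libraries, which may be technical.

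In cells under stress, p53 binds DNA upstream of and within its target genes and raises their transcription. The products stop the cell cycle, repair DNA, handle oxidants and nucleotides or, in feedback loops, bring p53 itself back down, with MDM2 as the ubiquitin ligase that marks p53 for destruction. Most pancreatic ductal tumors carry a changed p53, and several of these target genes keep a level of expression through other transcription factors.

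Peaks of acRIP-seq lay on each of the 9 genes in at least 1 group. Of all genes that averaged 1 FPKM or more, 49.9% had a shCtrl peak and 48% a shNAT10 peak. Printed here as examples are 4 stretches of coding sequence under peaks of the 9 genes. The stretches on CDKN1A and SESN1 were covered by a peak in both groups, the one on TP53I3 by a peak of shCtrl cells alone, and the one on PPM1D by a peak of shNAT10 cells alone. They are given 5′ to 3′ on the RNA strand, from GENCODE v29 on GRCh38, with introns removed. Capitals mark runs of 4 C bases spaced by 2 others, CNNCNNCNNCNN, the repeat that ac4C sites are known for, searched on the RNA strand only.
CDKN1A, chr6:36684102-36684401, plus strand, the first 300 bases of the coding sequence: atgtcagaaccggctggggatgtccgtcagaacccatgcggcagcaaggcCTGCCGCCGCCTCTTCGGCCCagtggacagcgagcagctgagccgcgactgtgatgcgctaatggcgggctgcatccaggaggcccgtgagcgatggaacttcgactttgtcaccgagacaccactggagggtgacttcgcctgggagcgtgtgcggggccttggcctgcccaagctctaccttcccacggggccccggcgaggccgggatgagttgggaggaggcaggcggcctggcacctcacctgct
SESN1, chr6:108994498-108998671, minus strand, 271 bases over 2 exons: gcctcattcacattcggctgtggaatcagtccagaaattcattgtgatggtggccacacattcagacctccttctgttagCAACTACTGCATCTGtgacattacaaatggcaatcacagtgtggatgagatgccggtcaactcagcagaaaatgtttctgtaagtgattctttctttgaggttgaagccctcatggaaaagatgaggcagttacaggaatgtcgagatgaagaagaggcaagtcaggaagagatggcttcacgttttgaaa
TP53I3, chr2:24083080-24084324, minus strand, 209 bases over 2 exons: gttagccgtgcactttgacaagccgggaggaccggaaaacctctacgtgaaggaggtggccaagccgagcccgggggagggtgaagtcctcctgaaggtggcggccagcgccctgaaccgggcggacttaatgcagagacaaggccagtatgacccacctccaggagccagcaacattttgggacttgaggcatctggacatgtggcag
PPM1D, chr17:60663117-60663356, plus strand, 240 bases: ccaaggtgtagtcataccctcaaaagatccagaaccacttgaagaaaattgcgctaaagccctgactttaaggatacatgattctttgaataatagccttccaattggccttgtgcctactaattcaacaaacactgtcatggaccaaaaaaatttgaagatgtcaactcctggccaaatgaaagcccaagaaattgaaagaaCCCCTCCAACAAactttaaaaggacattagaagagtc

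The repeat began at 4 positions in the CDKN1A stretch, at 2 in that of SESN1, at 1 in that of PPM1D and at none in that of TP53I3. Over all genes, 51.8% of the 5727 shCtrl peaks of 200 to 300 bases and 52.1% of the 5569 such shNAT10 peaks held it at least once. The 4 stretches were chosen, and no share was compared. C made up 31.3% of the CDKN1A stretch, 26.3% of that of TP53I3, 22.9% of that of PPM1D and 19.2% of that of SESN1. The mean was 23.6% in the shCtrl peaks of 200 to 300 bases. The CDKN1A stretch is the shared coding part of a longer peak in each list, outside that set.

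NAT10 itself, the gene the shRNA targets, stood at 31.6, 27.7 and 28.6 FPKM in shCtrl cells and at 7.92, 8.43 and 7.90 FPKM in shNAT10 cells (log2 change −1.84, SE 0.08, limma adjusted p = 3.85e-05). The libraries held 15831720 to 23521762 reads, as recovered from the steps of the FPKM values, and 122 to 2464 of these reads lay on a given target gene in a given library. The second shCtrl library correlated least with its own group (mean r of 0.967, against 0.971 to 0.981 for the others) and is named below wherever a value turns on it. Rescaling all libraries to an equal sum (TPM) moved the median log2 change of all tested genes from −0.01 to 0.10, a shift of 0.11 that also lies under each gene's change on that scale. The epithelial and ductal markers KRT7, KRT8, KRT18, KRT19 and EPCAM were all above 1 FPKM, with a sum of 2787 to 3749 FPKM in shCtrl and 1491 to 1673 FPKM in shNAT10 cells. KRT8, KRT18 and KRT19 carry that sum, and the 4 keratins had log2 changes of −1.18 to −0.83, all called lower, while EPCAM rose by 2.20 (SE 0.13, limma adjusted p = 6.88e-05). Of 6 fibroblast markers 2 reached a mean of 1 FPKM, COL1A1 and COL3A1, and the list summed to 29.6 to 34.7 FPKM in shCtrl and 19.3 to 22.9 FPKM in shNAT10 cells. COL1A1 fell by 0.69 on the log2 scale, while COL3A1 rose by 1.24 from a mean of 0.776 to 1.96 FPKM (limma adjusted p = 0.00182 for each). All 11 markers of leukocytes, endothelium and nerve cells lay below 1 FPKM, with CD3E and SOX10 listed at 0 in every library. The part of the marker differences in the results below was not tested.

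The target genes did not move as 1 group after NAT10 knockdown. CDKN1A, which encodes the cell cycle inhibitor p21, fell 3.19-fold, TP53I3, which encodes an oxidoreductase linked to reactive oxygen species, fell 2.20-fold, and ZMAT3, MDM4 and SESN1 fell by smaller amounts. MDM2 rose 1.33-fold, and PPM1D, GADD45A and RRM2B did not pass the test. A gene is said to have risen or fallen, or to be called, where the adjusted p of limma on log2(FPKM + 0.1) over all 12982 tested genes was under 0.05. By that rule 6 of the 9 genes were called, beside 42% of all tested genes. Of these, 5 were lower, beside 21.2% of all genes, and 1 was higher, beside 20.8%. The count fell to 3 of 9 on the TPM scale and to 2 or 3 of 9 without the third shCtrl library or any one shNAT10 library, where 41.8% and 27.3% to 29.8% of all genes were called. The 2 genes that fell more than 2-fold compare with 3.57% of all genes that fell that far, while none of the 9 rose more than 2-fold, which 2.91% of all genes did. The 3 libraries of one group lay wholly above those of the other for 7 of the 9 genes, beside 56.5% of all genes. The median log2 change of the 9 genes was −0.30, beside −0.01 over all tested genes. The 9 genes were chosen with earlier results of these data known, so these counts and the median are only a description. In these bulk libraries, fewer cells that hold an RNA and less of it per cell cannot be told apart.

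**Figure D1:**
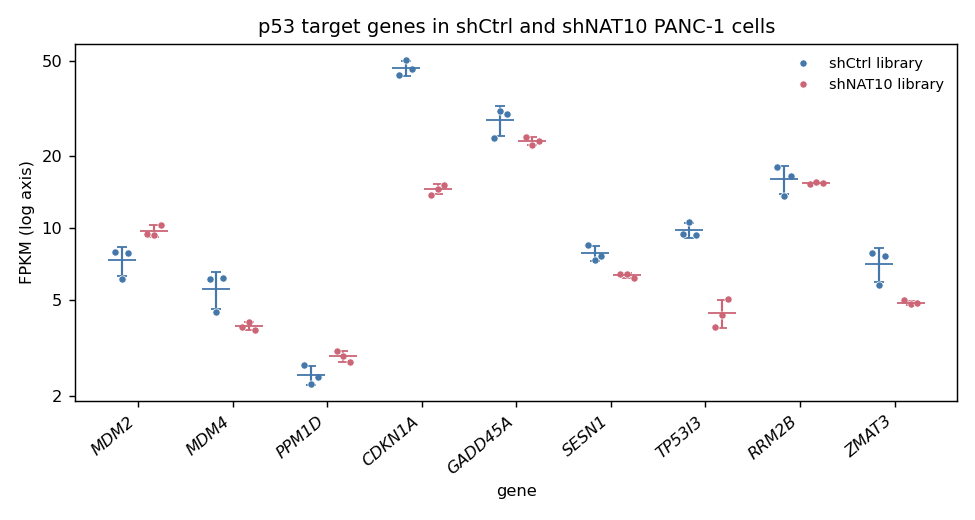
FPKM of the 9 p53 target genes (log axis) in the 3 shCtrl and 3 shNAT10 RNA-seq libraries. Points are libraries, horizontal lines are group means and bars are SD. The shNAT10 libraries of CDKN1A (13.8 to 15.2 FPKM) and TP53I3 (3.86 to 5.07 FPKM) sit far below the shCtrl libraries, those of MDM2 and PPM1D sit above, and those of GADD45A and RRM2B overlap with shCtrl.

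Of the feedback genes, MDM2 was called higher and MDM4 lower, while PPM1D was not called. MDM2 lies at chr12:68808176-68850686 on the plus strand. Its level was 7.97, 6.16 and 7.88 FPKM in shCtrl cells and 9.47, 9.33 and 10.3 FPKM in shNAT10 cells. Every shNAT10 library was above every shCtrl library, and the second shCtrl library was the lowest of the 6. The mean rose from 7.34 ± 1.02 to 9.72 ± 0.551 FPKM (SD, n = 3 each), a log2 change of 0.41 (SE 0.12, adjusted p = 0.027 by limma). Without that second shCtrl library the change was 0.29 and the call remained. The call was lost without the filter on low values (adjusted p = 0.0609) and on leaving out any one of the 3 shNAT10 libraries (adjusted p of 0.0649 to 0.0975). Of the exon bases of MDM2, 3.30% also belong to a neighbouring gene annotated on that strand and 6.91% to genes on the other strand.

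MDM4, a relative of MDM2 that binds p53 and blocks its activity, lies at chr1:204516379-204558120 on the plus strand. It stood at 6.11, 4.47 and 6.21 FPKM in shCtrl cells and at 3.87, 4.07 and 3.76 FPKM in shNAT10 cells. The groups did not overlap, but the second shCtrl library came close to the shNAT10 libraries. The mean fell from 5.60 ± 0.978 to 3.90 ± 0.154 FPKM (SD, n = 3 each), a log2 change of −0.50 (SE 0.14, limma adjusted p = 0.0256). This was the least stable call of the 9 genes, present in 7 of the 14 alternatives that tested MDM4. It was lost on the TPM scale (−0.40, adjusted p = 0.104 by limma), without the filter (adjusted p = 0.0624), and in 5 of 6 fits that left out 1 library, with adjusted p of 0.058 to 0.0898. Only the fit without the second shCtrl library kept it, with a change of −0.65 (adjusted p = 0.000483).

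PPM1D, the gene of the phosphatase Wip1 that removes activating phosphates from p53 and its kinases, lies at chr17:60600183-60666280 on the plus strand. It was the lowest of the 9 genes in both groups, at 2.69, 2.24 and 2.40 FPKM in shCtrl cells and 3.08, 2.92 and 2.76 FPKM in shNAT10 cells. The shNAT10 libraries were all higher, by a narrow margin. The log2 change of 0.25 (95% interval −0.02 to 0.52) did not pass the test (limma adjusted p = 0.122), nor did it in any of the 14 alternatives that tested the gene.

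Within a library, the level of MDM2 over that of MDM4 does not depend on the scaling of that library. This ratio was chosen after the values were seen. It was 1.30, 1.38 and 1.27 in shCtrl cells and 2.45, 2.29 and 2.75 in shNAT10 cells, so that the second shCtrl library, low for both genes, was close to the other shCtrl libraries in the ratio. The means were 1.32 ± 0.0563 and 2.498 ± 0.232 (SD, n = 3 each). The exact two-sided permutation test on the log2 ratio gave p = 0.1, the smallest p that 3 against 3 libraries allow.

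**Figure D2:**
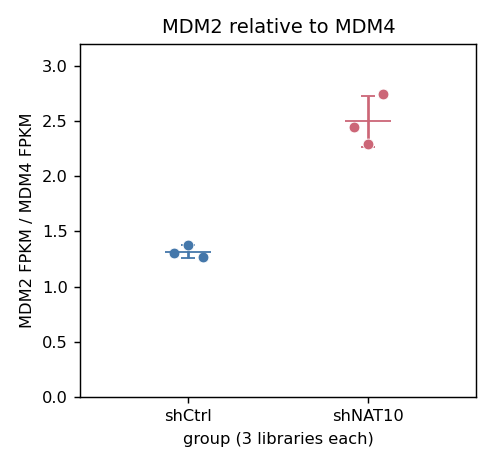
FPKM of MDM2 divided by FPKM of MDM4 in each of the 3 shCtrl and 3 shNAT10 libraries. Points are libraries, horizontal lines are means and bars are SD. The shCtrl libraries lie between 1.27 and 1.38 and the shNAT10 libraries between 2.29 and 2.75.

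Of the 2 cell cycle arrest genes, one fell strongly and the other did not pass the test. CDKN1A, whose product p21 blocks the cyclin-dependent kinases that drive cells into S phase, lies at chr6:36676460-36687339 on the plus strand. It stood at 43.4, 50.3 and 46.2 FPKM in shCtrl cells and at 13.8, 14.6 and 15.2 FPKM in shNAT10 cells. The gap between the groups was several times the spread within either. The mean fell from 46.6 ± 3.45 to 14.5 ± 0.694 FPKM (SD, n = 3 each), a log2 change of −1.67 (SE 0.08, 95% interval −1.86 to −1.49, limma adjusted p = 5.03e-05). Counted from the lowest log2 change, it ranked 102 of the 12982 tested genes. CDKN1A was called in all 15 alternatives, with changes from −1.72 to −1.57 and adjusted p of 4.76e-06 to 0.00117 (limma). On the other strand, 4.79% of its exon bases are shared with the long noncoding gene DINOL, whose reads could not be told apart unless the counting used strand.

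The 3 tested genes whose log2 FPKM ran most like that of CDKN1A over the 6 libraries were ICAM1, ECHDC1 and PSMB2, with Pearson r of 0.9995, 0.9995 and 0.9994. ICAM1, an adhesion molecule of leukocyte contact, had means of 57.7 FPKM in shCtrl and 23.2 FPKM in shNAT10 cells. ECHDC1, an enzyme that clears a by-product of fatty acid synthesis, had means of 48.9 and 11.4 FPKM. PSMB2, a subunit of the proteasome, had means of 41.4 and 11.1 FPKM. The 6 points come from 2 groups that differ in the level of all 4 genes, and nothing was tested beyond this likeness.

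GADD45A, a stress gene linked to the G2 checkpoint and DNA repair, lies at chr1:67685061-67688338 on the plus strand. It stood at 23.7, 31.0 and 30.1 FPKM in shCtrl cells and at 24.0, 22.3 and 23.2 FPKM in shNAT10 cells. The first shCtrl library lay among the shNAT10 libraries, so the groups overlapped. The log2 change of −0.28 (SE 0.11) did not pass the test (limma adjusted p = 0.0806). Without that first shCtrl library the change was −0.40 and passed (adjusted p = 0.00597), while in the other 14 alternatives it did not.

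The 4 genes that act on oxidants, nucleotides or RNA ran from a strong fall to no detectable change. TP53I3, also called PIG3, lies at chr2:24077433-24085861 on the minus strand. Its level was 9.46, 10.6 and 9.36 FPKM in shCtrl cells and 3.86, 4.35 and 5.07 FPKM in shNAT10 cells. The groups were far apart, with the second shCtrl library the highest. The mean fell from 9.82 ± 0.707 to 4.43 ± 0.608 FPKM (SD, n = 3 each), a log2 change of −1.14 (SE 0.12, limma adjusted p = 0.000496). It was called in all 15 alternatives, down to a change of −1.24, and with a pseudocount of 1 the fall came just short of 2-fold. On the other strand, 3.46% of its exon bases are shared with FAM228B.

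ZMAT3, an RNA-binding zinc finger protein that takes part in splicing, lies at chr3:179017223-179072279 on the minus strand. It stood at 7.85, 5.79 and 7.67 FPKM in shCtrl cells and at 5.003, 4.81 and 4.86 FPKM in shNAT10 cells. The groups did not overlap, and the second shCtrl library was nearest to the shNAT10 libraries. The mean fell from 7.10 ± 1.14 to 4.89 ± 0.099 FPKM (SD, n = 3 each), a log2 change of −0.52 (SE 0.13, limma adjusted p = 0.0158). The call was present in 11 of 15 alternatives. It was lost on the TPM scale (adjusted p = 0.0761) and without the third shCtrl, the second shNAT10 or the third shNAT10 library (adjusted p of 0.055 to 0.0614).

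SESN1, a sestrin that restrains mTORC1 signaling and counters oxidants, lies at chr6:108986437-109094819 on the minus strand. It stood at 8.51, 7.38 and 7.67 FPKM in shCtrl cells and at 6.44, 6.44 and 6.21 FPKM in shNAT10 cells. Every shNAT10 library was below every shCtrl library, and the shNAT10 libraries were close to each other. The mean fell from 7.85 ± 0.587 to 6.36 ± 0.136 FPKM (SD, n = 3 each), a log2 change of −0.30 (SE 0.08, limma adjusted p = 0.0241). The call was present in 9 of 15 alternatives and was lost on the TPM scale (−0.19, adjusted p = 0.189) and on leaving out any library but the second shCtrl one (adjusted p of 0.0515 to 0.0895). On the other strand, 7.09% of its exon bases also belong to a neighbouring gene.

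RRM2B, the p53-inducible small subunit of ribonucleotide reductase that supplies nucleotides for DNA repair, stood at 18.0, 13.7 and 16.5 FPKM in shCtrl cells and at 15.3, 15.5 and 15.5 FPKM in shNAT10 cells. All 3 shNAT10 values lay within the range of the shCtrl libraries, but only the second shCtrl library lay below them. The log2 change was −0.05 (95% interval −0.30 to 0.20, limma adjusted p = 0.745), and its sign turned on the TPM scale (0.06) and without the first shCtrl library (0.04). Without the second shCtrl library the change was −0.16 (limma adjusted p = 0.056). RRM2B was not called in any of the 15 alternatives.

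**Figure D3:**
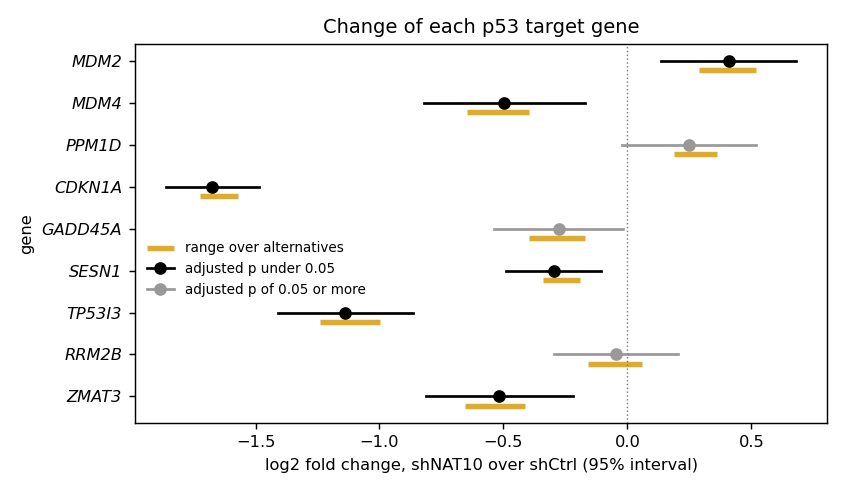
Log2 fold change of shNAT10 over shCtrl for the 9 genes. Points and thin lines are the estimate and 95% interval, black where the adjusted p was under 0.05 and grey otherwise, and the yellow bars span the 15 alternative fits (14 for MDM4 and PPM1D). CDKN1A at −1.67 and TP53I3 at −1.14 lie apart from the other 7 genes, which range from −0.52 to 0.41.

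The order of the 9 genes by FPKM, a level per length, differed between the groups. In shCtrl cells CDKN1A led, followed by GADD45A, RRM2B and TP53I3, each with a range of libraries apart from the next. Below these came SESN1, MDM2, ZMAT3 and MDM4, and the ranges of SESN1 and MDM2, of MDM2 and ZMAT3, and of ZMAT3 and MDM4 overlapped. Within each of the 3 shCtrl libraries, MDM2 was nevertheless above ZMAT3, and ZMAT3 above MDM4. PPM1D came last, with a range apart from that of MDM4. In shNAT10 cells GADD45A led at 22.3 to 24.0 FPKM, with RRM2B second at 15.3 to 15.5 FPKM, and CDKN1A next at 13.8 to 15.2 FPKM. MDM2 followed, above SESN1. ZMAT3 and TP53I3, and TP53I3 and MDM4, had overlapping ranges, and PPM1D was again last.

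A wider list of 56 other genes known as p53 targets gave 46 that passed the filter. Of these, 23 were called, 10 higher and 13 lower, and the median log2 change was −0.08. That is 50% called, beside the 42% of all tested genes, with 28.3% lower and 21.7% higher, and between 16 and 26 genes were called when 1 library was left out. One gene rose and one fell more than 2-fold, PERP and GDF15. The fall of GDF15 came short of 2-fold without the second shCtrl library, on the TPM scale and with quantile normalization. GDF15 stayed called in each, with log2 changes of −0.96, −0.96 and −0.99. The list was drawn from general knowledge of the pathway, but with earlier results of these data known, so counts over it are only a description. The same holds for the regulators below.

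Among targets that act on arrest and growth, 5 of 7 tested genes fell (71.4%, beside 21.2% of all tested genes) and 1 rose (14.3%, beside 20.8%). GDF15, a secreted stress cytokine, fell from 164, 225 and 196 FPKM in shCtrl cells to 93.7, 92.1 and 91.3 FPKM in shNAT10 cells, a log2 change of −1.07 (SE 0.11, limma adjusted p = 0.000563). PLK3, a stress-responsive kinase, fell by 0.90 on the log2 scale (SE 0.14, limma adjusted p = 0.00263), from means of 2.71 to 1.41 FPKM. Over the alternatives, 3 to 5 genes of this group were called lower.

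Among the 14 tested apoptosis genes 3 rose, or 21.4%, close to the 20.8% of all tested genes. In this group limma called 0 lower, beside 21.2% of all tested genes, with 2 lower at an unadjusted p under 0.05, 0 lower by voom on recovered reads and up to 3 lower in other alternatives. PERP, a membrane protein of cell adhesion and p53-dependent death, stood at 61.1, 70.05 and 67.1 FPKM in shCtrl cells and at 237, 241 and 230 FPKM in shNAT10 cells. Its log2 change of 1.84 (SE 0.07, limma adjusted p = 3.84e-05) was the largest rise of the list. PMAIP1, which encodes the BH3-only protein NOXA, rose by 0.62 (SE 0.14, limma adjusted p = 0.0115). The death receptor gene FAS, named here after its values were seen, did not pass the filter, with 1.21, 0.964 and 0.995 FPKM in shCtrl and 0.370, 0.361 and 0.265 FPKM in shNAT10 cells. When no filter was applied its log2 change was −1.43 (SE 0.25, limma adjusted p = 0.0121).

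In the remaining groups, each of 3 to 11 tested genes, counts are to be read beside the 21.2% of all tested genes that fell and the 20.8% that rose. XPC, which recognizes DNA damage in nucleotide excision repair, rose by 0.75 (SE 0.10, limma adjusted p = 0.00118), the only call among 3 tested repair genes. Of 8 tested genes of metabolism, redox and autophagy 3 fell and 1 rose, and the one that rose was PANK1, a kinase of coenzyme A synthesis, by 0.71 (SE 0.16, limma adjusted p = 0.0107). Of 3 feedback ubiquitin ligases 1 fell. Of 11 other targets 4 fell and 4 rose. The receptor gene NOTCH1 rose by 0.93 (SE 0.12, limma adjusted p = 0.00117). BLOC1S2, of a complex that builds lysosome-related organelles, changed by −0.82 (SE 0.08), the ribosomal protein gene RPS27L by −0.76 (SE 0.15) and PML, the scaffold of nuclear bodies, by −0.61 (SE 0.11), with limma adjusted p of 0.00052, 0.00676 and 0.0043.

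**Figure D4:**
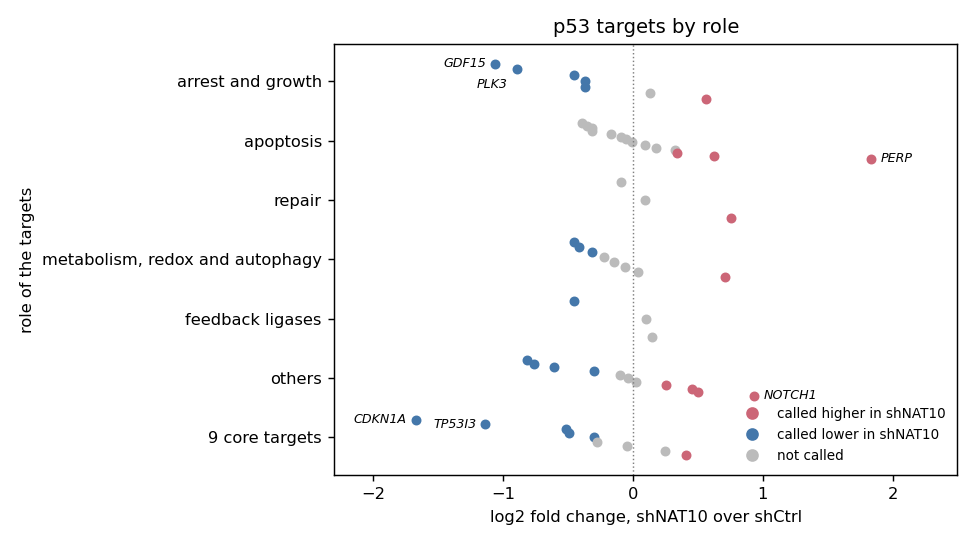
Log2 fold change of shNAT10 over shCtrl for the 46 tested other p53 targets, by role, and for the 9 core targets. Each point is a gene, red or blue where called higher or lower and grey where not called. Among arrest and growth genes 5 of 7 were called lower, while among apoptosis genes 3 of 14 were called higher and 0 lower, with PERP at 1.84. Of all tested genes 21.2% were called lower and 20.8% higher.

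Of 21 listed regulators that act on p53, 18 passed the filter. Of these 3 were called (16.7%, beside 42% of all tested genes), all kinases. HIPK2, a kinase that phosphorylates p53 in response to damage, had 6.002, 2.75 and 4.56 FPKM in shCtrl cells and 8.43, 7.37 and 8.62 FPKM in shNAT10 cells. The second shCtrl library was again the lowest. Its log2 change of 0.92 (SE 0.26, limma adjusted p = 0.0253) was called in 10 of 15 alternatives. CHEK1, a checkpoint kinase, rose by 0.35 (SE 0.07, limma adjusted p = 0.00532), and CHEK2, another checkpoint kinase, fell by 0.47 (SE 0.10, limma adjusted p = 0.0105). Among 5 genes of acetylation, 4 binding partners and 4 MDM2-binding ribosomal and nucleolar proteins limma called 0, with 0 at an unadjusted p under 0.05 and 0 by voom on recovered reads, although other alternatives called up to 1 acetylation gene and up to 2 of the ribosomal and nucleolar ones in each direction. The p53 relatives TP63 and TP73 and the gene CDKN2A were below the filter. CDKN2A, whose product p14ARF holds MDM2 back, was listed at 0 in 5 of 6 libraries and at 0.0449 FPKM in the other one.

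The acRIP lists hold 16892 peaks for shCtrl and 15813 for shNAT10 cells. A peak carries the fold enrichment of IP over input that the caller gave, and each list was pooled over its libraries, so differences between the lists have no replicate check and no test. On the 9 genes lay 16 shCtrl peaks and 14 shNAT10 peaks. A shCtrl peak was found on 8 of the 9 genes, all but PPM1D, beside 49.9% of the 12834 genes that averaged 1 FPKM or more. A shNAT10 peak was found on 8 of the 9 genes, all but TP53I3, beside 48% of those genes. Both lists held a peak for 7 of the 9 genes, beside 4366 of those 12834 genes. Of the 7 genes only CDKN1A and SESN1 had peaks that overlapped by at least 1 base, beside 49.9% of the 4366 genes. Of the peaks, 6 of 16 in shCtrl (37.5%) and 5 of 14 in shNAT10 cells (35.7%) overlapped one of the other list, beside 25.5% and 27.2% of all peaks in the lists. CDKN1A and SESN1 were also the genes with overlapping peaks when an overlap of 50% of each peak was asked for, or when both lists were cut to their top 50% by fold enrichment or by p-value.

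On CDKN1A the peaks covered most of the transcript. In shCtrl cells a peak of 210 bases lay on the 5′ UTR with a fold enrichment of 8.62, one of 450 bases lay wholly in the coding sequence of 492 bases at 11.2, and one of 1466 bases lay in the 3′ UTR at 55.4. In shNAT10 cells the peak at the start of the coding sequence was at 5.80, with 300 of its 330 bases coding, and the 3′ UTR held a peak of 808 bases at 122 and one of 151 bases at 5.41. The first 300 coding bases, printed above, are what both coding peaks share. CDKN1A, whose RNA level fell 3.19-fold, thus had 3 peaks in each list. The fold enrichment is relative to input of the same cells, and values between the lists were not tested.

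On SESN1 there were 5 shCtrl and 2 shNAT10 peaks. The shCtrl peaks lay in the 5′ UTR (65.9), in the coding sequence (74.1, 558 and 182) and in the 3′ UTR (40.5). The shNAT10 peaks spanned the start codon (426) and the middle of the coding sequence (1870), the latter around the SESN1 stretch printed above. On TP53I3 the single peak, at 1150 in shCtrl cells, began at base 3 of the coding sequence. On PPM1D the single peak, at 1350 in shNAT10 cells, covered bases 1383 to 1622 of a coding sequence of 1815 bases.

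On the other 5 genes the peaks of both lists lay at different places. MDM2 had 1 shCtrl peak in its 3′ UTR (34.4) and in shNAT10 cells a partly coding peak (7.93) and a 3′ UTR peak (2530), the highest fold enrichment on any of the 9 genes. MDM4 had 3 shCtrl peaks, 1 partly coding and 2 in the 3′ UTR, with values of 51.5, 5.65 and 7.93, and 1 coding shNAT10 peak at 9.05. GADD45A had a 3′ UTR peak in shCtrl cells (4.93) and peaks over the start codon (4.62) and in the coding sequence (45.2) in shNAT10 cells. RRM2B had 1 peak in each list (169 in shCtrl, 239 in shNAT10) and ZMAT3 had 1 in shCtrl (262) and 2 in shNAT10 cells (235 and 201), all in the 3′ UTR. Over the 9 genes 6 of 16 shCtrl peaks and 8 of 14 shNAT10 peaks touched, at least in part, coding sequence of the longest complete coding transcript. The share of all peaks that do so was not taken, and the difference between the lists was not tested.

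CDKN2A had peaks beside almost no RNA-seq signal. Listed at 0 in 5 of 6 RNA-seq libraries, it carried 2 shCtrl peaks at 310 and 82.9 and no shNAT10 peak. Over all genes, 10.3% of shCtrl peaks and 10.6% of shNAT10 peaks lay on genes with a mean FPKM under 0.1. The median fold enrichment of all peaks, whatever the level of their gene, was 49.3 in the shCtrl and 45.2 in the shNAT10 list.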

How the data were processed

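RNA-seq libraries (3 shCtrl, 3 shNAT10) and acRIP-seq peak lists of PANC-1 cells were used. The submitters' processing notes name HISAT2, HTSeq 0.11.0 and DESeq2 1.22.2. The authors deposited FPKM values per Ensembl gene, and for each acRIP group 1 list of peaks with a fold enrichment (a ratio of IP over input), a p-value and the base-10 logarithm of that p-value, treated as a score. Their notes name the build hg38 (GRCh38), and the peak caller is not given in the sources used here. Of the IDs, 58039 of 58302 matched GENCODE v29, and 99.9% of the peaks lay inside their named gene on GRCh38.

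Groups were compared with limma 3.58.1 (R 4.3.3) on log2(FPKM + 0.1) with a mean-variance trend, with Benjamini-Hochberg adjustment over the 12982 genes that reached 1 FPKM in 3 or more libraries. A fold change on this scale understates the change of low genes. Whole reads were recovered for 12951 of 12956 GENCODE genes past the filter (within 0.01 reads) and served as 1 alternative with voom. Peaks that shared at least 1 base on the same gene and strand were called overlapping. Intervals are 95%. The limma and overlap steps were tested on simulated data.

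Named beside the 9 genes were up to 5 called genes per direction of 2 other lists by log2 change, CDKN2A, NAT10 and the 3 genes most correlated with CDKN1A. The members and lists were chosen with earlier results of these data known. The gene encoding p53 and 1 marker gene are not reported here. Alternatives were other pseudocounts, filters, scalings and models, a block on the replicate number, leaving out each library and stricter peak settings.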

Additional observations from a re-analysis of the deposited data

How the results depend on the processing

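CDKN1A and TP53I3 were called lower in all 15 alternative fits. The count of called genes among the 9 targets, 6 as reported, was 3 on the TPM scale, with 2 lower, and 2 to 6 when 1 library was left out (2 to 5 lower, 0 to 1 higher). Of all tested genes 41.8% were called on the TPM scale, beside 33.3% of the 9, and 27.3% to 29.8% in the 4 fits without a library in which 2 or 3 of the 9 (22.2% or 33.3%) were called. Without a filter on expression the count of genes called higher was 0, since MDM2 did not pass. With a pseudocount of 1 the count past a 2-fold fall was 1, since TP53I3 came just above −1, and it stayed at 2 when 1 library was left out. RRM2B reversed to 0.0603 on the TPM scale and to 0.0395 without the first shCtrl library, and lay between −0.1589 and 0.0395 when 1 library was left out. The count of called regulators, 3 as reported, was 5 with TPM (4 higher) and 6 with quantile normalization (4 higher, 2 lower), and 2 to 6 when 1 library was left out (1 to 4 higher, 1 to 3 lower). Without a filter on expression 1 regulator was called higher. The count of other targets, 23 as reported, stayed within 1.5 times. In the 50% of each peak list with the highest fold enrichment 9 shCtrl and 9 shNAT10 peaks and 4 genes with a peak in both lists were left on the 9 genes, and in the 50% with the lowest p-values 8, 9 and 4. Over 22 named genes and 325 values, 295 kept their direction and their side of the threshold, 27 lost a call, 1 gained one and 2 reversed. The cause of these changes was not tested.

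Libraries of the 2 groups with the same replicate number correlated at −0.04, 0.06 and 0.11 in their deviations from the group means, so the numbers were not taken as a pairing. With a replicate block 6 of the 9 targets, 22 other targets and 3 regulators were called, and no call of the 9 targets changed. As to depth, 122 to 2464 reads per gene and library lie behind the values.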
